A study of Sus scrofa with 23 samples.

Results

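MS4A2 and FCER1G encode the beta and the gamma chain of the high-affinity receptor for immunoglobulin E (IgE). Both genes were followed through RNA-seq counts of backfat, the subcutaneous fat of the back, from 23 fattening pigs, as 2 of 25322 gene identifiers. They were selected on their measured counts, since earlier results of the same counts had listed them among the genes that differed between group I and group II, and MS4A2 also between group I and the other groups combined. All differences from group I are therefore given as a description, without a test. The identifier ENSSSCG00000013099 was named MS4A2 only in the study's own tables, while ENSSSCG00000006357 had the name FCER1G in the table of gene names used here. MS4A2 below is therefore the study's name for that identifier, and whether it covers the beta chain gene or another gene of the MS4A family was not tested.

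The pigs were crossbred fatteners, with Polish Landrace × White Large Polish dams and a Duroc × Pietrain sire, gilts and castrated males, on isoenergetic diets. The diets differed in the fat source and in cDDGS, corn dried distillers grains with solubles, the residue of maize that distilling leaves behind. By the study's own figures, the diets with cDDGS also held more crude fat and fiber and less starch. There were 7 pigs without cDDGS, on rapeseed oil (group I), and 6 pigs with cDDGS on rapeseed oil (group II), 5 on beef tallow (group III) and 5 on coconut oil (group IV). Groups III and IV thus differed from group I in both the fat and cDDGS, and the RNA was degraded in all groups. There were 12 females and 11 males.

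The receptor on mast cells and basophils consists of an alpha chain that holds IgE (FCER1A), the beta chain MS4A2 that amplifies the signal, and a pair of gamma chains. Cross-linking by antigen lets the kinase LYN phosphorylate the beta and gamma chains, SYK binds to the gamma chain, and the adaptors LAT and LCP2 carry the signal to degranulation. MS4A2 is known mainly from mast cells and basophils, whereas FCER1G also serves IgG receptors and other receptors of macrophages and other myeloid cells.

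Each pig had 2437172 to 7979426 reads on genes. Expression is given as CPM, TMM-normalized counts per 1e6 reads, which are not scaled to gene length, so that levels were compared between pigs and not between genes. In edgeR's quasi-likelihood test with Benjamini-Hochberg adjustment, DEGs (adjusted p-value under 0.05 and fold change above 1.3) made up 0.0291% of the genes tested between groups I and II (3 of 10323) and 0% between groups I and III, between groups I and IV, between group I and the cDDGS groups combined, and between groups III and IV. Unadjusted p-values under 0.05, in either direction, were held by 1338 genes (13%) for groups I and II, 830 (7.96%) for I and III, 1475 (14.2%) for I and IV, 1695 (15.8%) for group I and the combined groups and 421 (4.12%) for groups III and IV. DESeq2 called 96, 13, 154, 163 and 0 DEGs in the same order, and limma-voom 4, 0, 0, 51 and 0. The DESeq2 calls were 0.534% of 17980 genes for groups I and II and 0.88% of 18521 for the combined groups, where those of limma-voom were 0.474% of 10749. Between females and males, 0.819% of the genes (92 of 11235) were DEGs in edgeR's test, 17.3% had an unadjusted p-value under 0.05, and DESeq2 called 1.4% of 18489. Adipocyte markers were abundant in all 4 diets, with a median summed level between 2626 and 3310 CPM. Marker lists of keratinocytes, of B and plasma cells and of neutrophils summed to at most 5.54, 2.39 and 4.14 CPM in any pig. Fibroblast markers had median sums between 7551 and 11970 CPM in the 4 diets. Skeletal muscle markers varied widely, from 1.11 CPM in a pig of group I to 1805 CPM in a pig of group III.

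Of the 3 receptor chains, only MS4A2 and FCER1G had enough reads for a test. MS4A2 had between 34 and 449 reads per pig, 4510 in all, and FCER1G between 9 and 110, 998 in all. FCER1A, the chain that binds IgE, had 29 reads over all 23 pigs and none in 10 of them. The count of MS4A2 was therefore measured with less counting error than that of FCER1G. In pig 6 of group I, the 9 reads of FCER1G gave 3.64 CPM with an exact 95% Poisson interval from 1.66 to 6.90, and in pig 8 of group I the 34 reads of MS4A2 gave 8.15 CPM with an interval from 5.64 to 11.4. These intervals cover counting error only.

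In group I, MS4A2 ranged from 8.15 CPM (pig 8) over a median of 28.1 to 53.5 CPM (pig 7). In group II the lowest pig had 38.5 CPM (pig 21), the median was 66.0 and the highest pig had 80.9 CPM (pig 17). All 6 pigs of group II were above 6 of the 7 pigs of group I, and 4 of them were above pig 7 too. In group III the values were 25.8, 69.4, 38.0, 55.5 and 26.8 CPM for pigs 41, 43, 45, 46 and 48, and in group IV they were 63.6, 51.3, 47.3, 52.8 and 20.6 CPM for pigs 49, 52, 53, 54 and 55. Groups III and IV overlapped with group I, since 2 of 5 pigs of group III and 1 of 5 pigs of group IV were above its highest pig.

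MS4A2 averaged 25.1 ± 15.5 CPM (SD, n = 7) without cDDGS. With cDDGS it averaged 62.7 ± 15.2 CPM on rapeseed oil (SD, n = 6), 43.1 ± 19.0 on beef tallow (SD, n = 5) and 47.1 ± 16.0 on coconut oil (SD, n = 5). The mean was thus 2.50-fold that of group I with cDDGS and rapeseed oil, 1.72-fold with beef tallow and 1.88-fold with coconut oil. In the order of the diets (II, IV, III, I), no step between neighbours was larger than the SD of both neighbours, while groups I and II at the ends of that order overlapped by 1 pig of group I.

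In group I, FCER1G ranged from 3.64 CPM (pig 6) over a median of 6.59 to 11.3 CPM (pig 1), and pig 1 was above all 5 pigs of group III. In group II it ranged from 7.16 CPM (pig 22) over a median of 12.4 to 29.2 CPM (pig 19), the highest value of all 23 pigs. Here too all 6 pigs of group II were above 6 of the 7 pigs of group I, and 3 of them were above pig 1. In group III the values were 7.02, 11.14, 4.48, 7.22 and 9.16 CPM for pigs 41, 43, 45, 46 and 48, all below the highest pig of group I. In group IV they were 10.2, 8.60, 9.48, 8.19 and 14.3 CPM for pigs 49, 52, 53, 54 and 55, which were all above 6 of the 7 pigs of group I.

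The means of FCER1G were 6.49 ± 2.46 CPM (SD, n = 7), 14.9 ± 7.92 (SD, n = 6), 7.80 ± 2.50 (SD, n = 5) and 10.1 ± 2.44 (SD, n = 5) in groups I to IV. The mean was 2.30-fold that of group I with rapeseed oil, 1.20-fold with beef tallow and 1.56-fold with coconut oil, each with cDDGS. The diets stood in the same order as for MS4A2, and again no step between neighbours in that order was larger than both SDs. In bulk tissue, fewer cells of a type and less RNA per cell cannot be told apart.

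**Figure D1:**
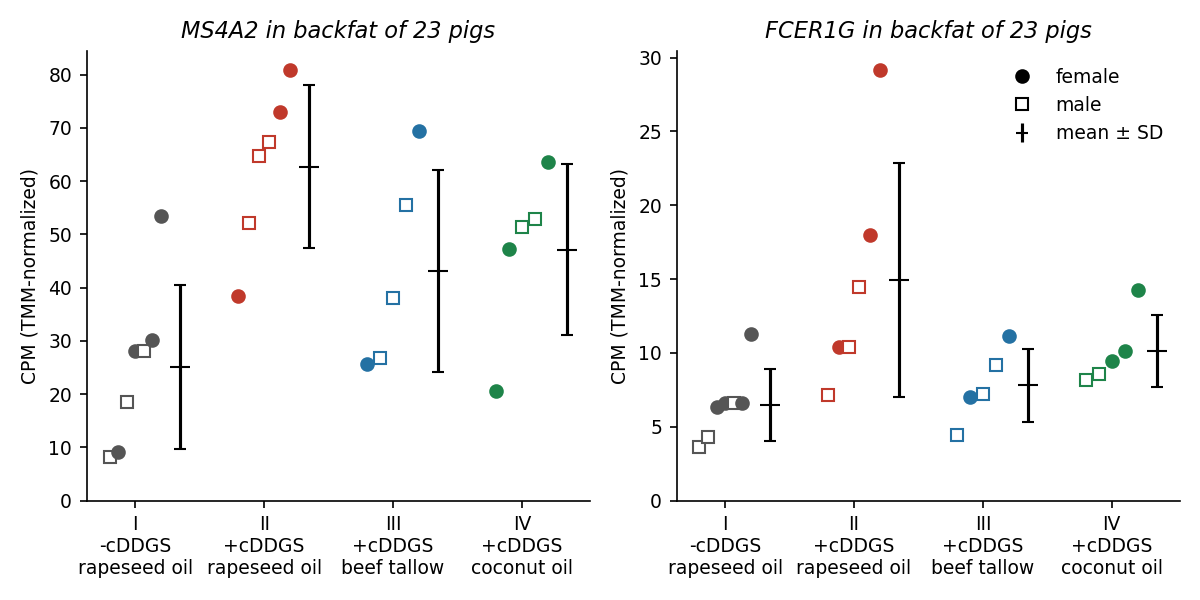
CPM of MS4A2 (left) and FCER1G (right) in each pig by dietary group, with filled circles for females, open squares for males and bars for the mean ± SD. For MS4A2, 4 of 6 pigs of group II lie above all pigs of group I, and for FCER1G 3 of 6, with pig 19 at 29.2 CPM.

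The fitted log2 fold changes of edgeR, positive where expression was higher with cDDGS, showed the same pattern. For MS4A2, groups II, III and IV stood 1.32 ± 0.34, 0.78 ± 0.39 and 0.90 ± 0.38 (SE) above group I, and the 3 cDDGS groups combined 1.03 ± 0.29. For FCER1G the corresponding values were 1.18 ± 0.30, 0.25 ± 0.27, 0.62 ± 0.24 and 0.75 ± 0.27. The comparisons share the pigs of group I, so they are not independent of each other. The estimate of FCER1G in group II was 0.70 in place of 1.18 with the share of reads outside genes as covariate, a share that averaged 56.8, 62.5, 56.8 and 63.0% of the uniquely mapped reads in groups I to IV. The corresponding estimate of MS4A2 moved with this covariate by far less than its SE of 0.34. In group IV, however, MS4A2 was 0.59 in place of 0.90 with it, and FCER1G was 0.48 in place of 0.75 for the combined groups. With limma-voom, MS4A2 was 1.17 in place of 0.78 in group III. The small difference of FCER1G in group III was 0.078 without pig 43, 0.39 without pig 45 and 0.44 without pig 1.

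**Figure D2:**
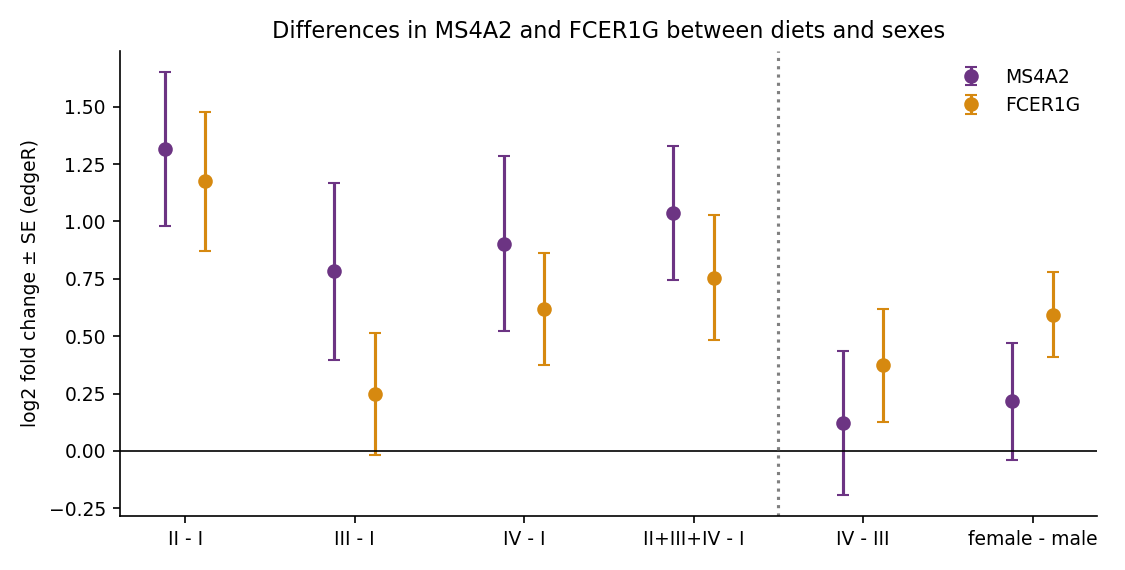
Fitted log2 fold changes (edgeR, points) with their SE (bars) of MS4A2 and FCER1G for the 4 differences from group I, left of the dotted line, and for group IV against group III and females against males, right of it. The largest values are those of group II against group I, 1.32 and 1.18.

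A comparison that had no part in the choice of the genes was that of group III with group IV, in which cDDGS was the same and the fat was not. MS4A2 was 0.12 ± 0.31 (log2, SE) and FCER1G 0.37 ± 0.25 higher in group IV than in group III, both at an adjusted p-value of 0.997 in edgeR's test. The exact two-sided permutation test gave p = 0.754 for MS4A2 and p = 0.167 for FCER1G over all regroupings of 5 against 5 pigs, where 0.00794 is the smallest p possible. A difference between beef tallow and coconut oil was thus not detectable for either chain with these numbers of pigs.

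The comparison of females with males was also independent of the choice. FCER1G ranged from 6.33 over a median of 10.3 to 29.2 CPM in the 12 females and from 3.64 over 7.22 to 14.5 CPM in the 11 males. The mean of the females was above that of the males in all 4 diets, with 7.72 against 4.85 CPM without cDDGS and, with it, 19.2 against 10.7 on rapeseed oil, 9.08 against 6.96 on beef tallow and 11.3 against 8.40 on coconut oil. The sexes overlapped in groups I, II and III, and in group IV all 3 females were above both males.

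Within diets the difference of FCER1G was 0.55 on the scale of log2(CPM + 0.5). By exact permutation of sex within diets, with 70000 regroupings, it had p = 0.00633, or 0.0253 after Benjamini-Hochberg adjustment over the 4 permutation tests of both genes. Across all genes it did not pass, with a log2 fold change of 0.59 ± 0.18 (SE) and an adjusted p-value of 0.116 in edgeR's test. The adjusted permutation p was 0.0605 without pig 6, 0.0504 without pig 8, 0.0559 without pig 22 and 0.0554 without pig 43. For MS4A2 a difference was not detectable, with 0.14 on the same scale (exact permutation p = 0.642) and means that were higher in females in 3 of 4 diets, among them group II by only 0.0016 on the log2 scale.

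Among markers of other tissue components, COL1A2, a fibroblast collagen, was the 1 DEG between the sexes of the 70 list genes tested, beside 0.819% of all genes. COL1A2 was higher in females by a log2 fold change of 0.82 ± 0.18 (edgeR, adjusted p = 0.0307). The call of COL1A2 was lost without any of 10 single pigs, with an edgeR adjusted p of up to 0.0878 (without pig 43). The muscle genes ACTA1 and TNNC2 were lower in females by 2.57 ± 0.95 and 3.06 ± 0.84 (log2, SE), at adjusted p-values of 0.173 and 0.0776 in edgeR's test, and ACTA1 ranged from 0.884 to 1542 CPM over the pigs. TYROBP, a signalling adaptor of myeloid cells, was 0.72 ± 0.24 higher in females, and VAV1, an exchange factor downstream of the receptor, 0.67 ± 0.22, at adjusted p-values of 0.139 and 0.131 in edgeR's test. The part of these components in the difference of FCER1G was not tested.

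The pigs of 1 diet differed much in MS4A2. The highest pig of group I had 6.57 times the level of the lowest, and this ratio was 2.10, 2.70 and 3.09 in groups II to IV. Around the diet means, the SD of log2(CPM + 0.5) was 0.70, and 97.4% of the 1799 genes whose mean CPM was within 1.5-fold of its own had a smaller SD, with a median of 0.26. FCER1G had an SD of 0.51, above that of 83.3% of 2328 genes of like level, whose median was 0.37. Within a diet, the ratio of the highest to the lowest pig of FCER1G was between 1.74 (group IV) and 4.08 (group II).

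A relation between the chains among pigs on the same diet was not detectable. Over the deviations of the 23 pigs from their diet means, Pearson's r was 0.10 (permutation p = 0.658) and Spearman's rho 0.23 (permutation p = 0.312), each with 100000 permutations within diets. Without pigs 8 and 5, which lay farthest from the median of MS4A2, r was -0.01. Within group I alone r was 0.45 and rho 0.79 over 7 pigs, and within group II r was -0.21 and rho -0.20 over 6 pigs. Pig 55 had the lowest MS4A2 of group IV (20.6 CPM) and the highest FCER1G of that group (14.3 CPM). Pig 21 was likewise lowest in MS4A2 in group II, with the second highest value of FCER1G (18.0 CPM), whereas pig 19 was high in both. Pigs 1 and 43 were also above their diet means in both chains, and pig 8 was below its diet mean in both.

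**Figure D3:**
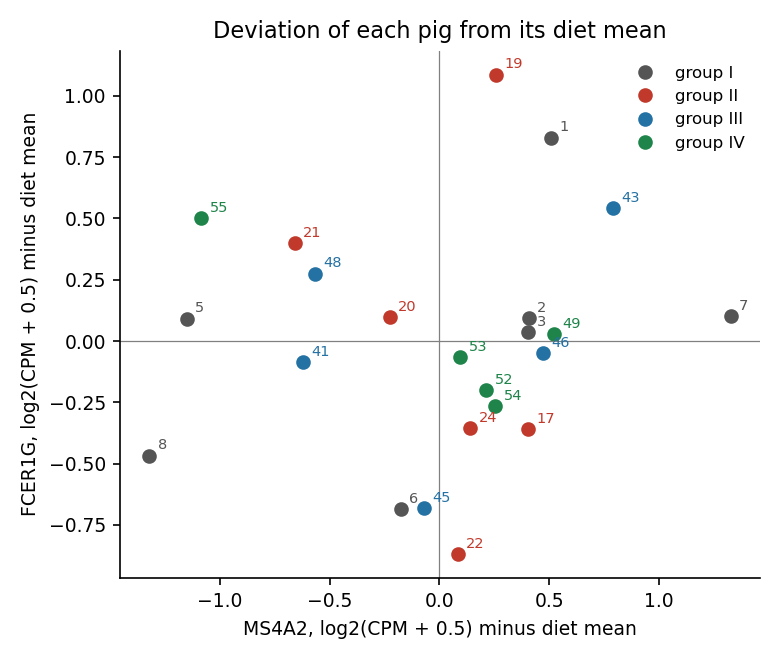
Deviation of each pig from the mean of its diet on the scale of log2(CPM + 0.5), for MS4A2 (horizontal axis) and FCER1G (vertical axis), with the pig's number and the colour of its diet. The points show no common trend (Pearson's r of 0.10 over 23 pigs). Pigs 55 and 21 were low in MS4A2 and high in FCER1G, while pigs 1 and 43 were above their diet means in both.

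The genes most like each chain were ranked by Pearson's r of the same deviations over 11038 other genes. All these points come from the same 23 libraries, and r is given as a description. For MS4A2 the leading genes were GULP1, an adaptor of the engulfment of dying cells, with r = 0.86, DTWD1 with 0.82, TRANK1 with 0.81, ENSSSCG00000028912 with 0.80 and RBPJ, the DNA-binding factor of Notch signalling, with 0.78. The macrophage genes C1QA, a chain of complement C1q, and VSIG4, a complement receptor, stood at ranks 10 and 12 (r = 0.73 and 0.72), and MRC1, the mannose receptor, at rank 27 (r = 0.68). Over 15 macrophage markers, r with MS4A2 ran from -0.17 to 0.73, with -0.10 for CD68 and 0.13 for TYROBP. FCER1G came at rank 3974 and KIT, the receptor for the mast cell growth factor, at rank 1900 (r = 0.25). Within group I, pig 8 had the lowest (3.59 CPM) and pig 7 the highest (26.3 CPM) value of C1QA as of MS4A2. The order of the pigs between them was not the same, with pig 5 below pig 6 in MS4A2 and above it in C1QA (12.05 against 8.08 CPM). In group IV, pig 49 was highest in MS4A2, while its C1QA was 20.3 CPM against 32.6 CPM in pig 52.

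For FCER1G the leading genes were MTMR11 with r = 0.83, ENSSSCG00000003200 with 0.79, ENSSSCG00000026558 with 0.78, SLC15A3, a peptide and histidine transporter of lysosomes, with 0.77 and ECM1, a protein of the extracellular matrix, with 0.77. TYROBP, an adaptor built like the gamma chain, was at rank 16 (r = 0.73) and VAV1 at rank 32 (r = 0.71). C1QA was at rank 638 (r = 0.49), and KIT at rank 5513 (r = 0.02).

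As whole lists, 15 macrophage markers had a median r of 0.28 with MS4A2 and 0.47 with FCER1G, and 15 genes of IgE receptor signalling had medians of 0.19 and 0.50. The 6 mast cell markers had medians of 0.20 and 0.22, beside 0.01 and 0.02 over all genes. The 7 fibroblast markers had medians of 0.30 with MS4A2, above that of the macrophage list, and 0.44 with FCER1G, near that of the macrophage list. FCER1G was also related to the share of reads taken by the gene with the largest counts (r = -0.49), for which MS4A2 had r = -0.22. This share was largest in pigs 6 and 8 (36.4 and 37.1%), males of group I with low FCER1G. It was smallest in pig 19 (20.8%), the female with the highest FCER1G. The part of this share in the difference of FCER1G between the sexes was not tested. The share of reads outside genes had r = 0.25 with FCER1G and 0.12 with MS4A2 within diets.

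**Figure D4:**
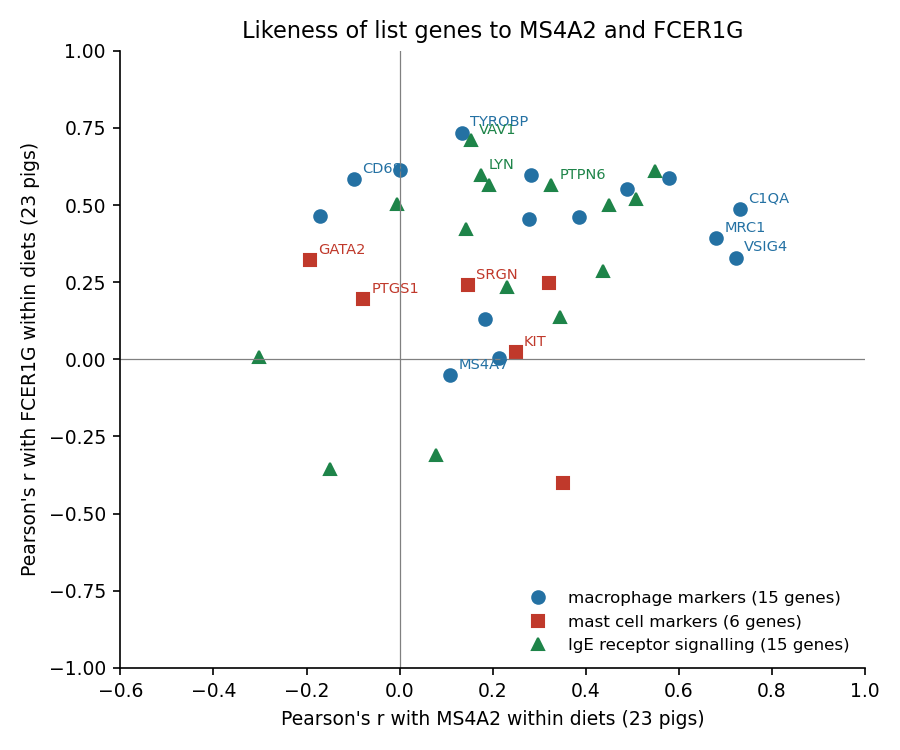
Pearson's r within diets (23 pigs) of each measured macrophage marker, mast cell marker and gene of IgE receptor signalling with MS4A2 (horizontal axis) and with FCER1G (vertical axis). C1QA, VSIG4 and MRC1 lie far to the right, TYROBP and VAV1 lie high near the middle, and KIT lies near 0.25 and 0.02. CD68, also a macrophage marker, lies left of 0 (r = -0.10 with MS4A2).

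Several defining genes of mast cells were sparsely measured. Of 26 mast cell markers, 12 had an identifier in the names used here, and 5 passed the low-count filter for groups I and II. HDC, which makes histamine, had 3 reads over all 23 pigs, HPGDS, the prostaglandin D synthase, 20, SLC18A2, which loads amines into granules, 34, and the transcription factor GATA1 49. The granule proteases CPA3, CMA1, TPSAB1 and TPSB2, KITLG, the growth factor of mast cells, and LAT were not matched to an identifier and were not analysed here. Thus FCER1A and HDC were at or near 0 while the identifier named MS4A2 had reads in every pig. Mast cell list genes that are also known from other cells had reads in every pig as well, among them MITF, a transcription factor, with 26.5 CPM on average, SRGN with 21.8 and PTGS1 with 3.42.

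KIT was well measured, though it is also known from other cells, such as melanocytes. It had 47.9 to 114 CPM with a median of 69.7 in group I, and 80.4 to 147 CPM with a median of 90.0 in group II, with a log2 fold change of 0.42 ± 0.20 (edgeR, SE, adjusted p = 0.399). Its ranges overlapped, and its means in groups III and IV were 65.7 ± 26.9 and 70.5 ± 27.1 CPM (SD, n = 5 each). The 5 tested mast cell markers had a median log2 fold change of 0.42 between groups I and II, beside 0.00303 over all genes, and 0 of them were DEGs in edgeR's test, which was the count in DESeq2 too. Among them were SRGN, the core of granule proteoglycan, with 0.53 ± 0.22, PTGS1, which makes prostaglandin precursors, with 0.50 ± 0.25 and GATA2, a transcription factor of blood cells, with -0.20 ± 0.32 (log2, SE). The unadjusted p-value was under 0.05 for 1 of the 5, beside 13% of all genes. The summed level of all 12 markers had medians of 120, 155, 125 and 130 CPM in groups I to IV, of which KIT made up most.

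Genes of IgE receptor signalling mostly had values above 0 with cDDGS and rapeseed oil, without passing the test. Of 25 genes on the list, 19 had an identifier and 15 were tested, of which 14 had a log2 fold change above 0 between groups I and II, with a median of 0.35. In edgeR's test 0 of the 15 were DEGs, with an unadjusted p-value under 0.05 for 6 (13% over all genes), while DESeq2 called PTPN6 alone. PTPN6, the phosphatase that damps the signal, had 0.93 ± 0.22 (log2, SE), LCP2 0.79 ± 0.26, the kinase PRKCD 0.75 ± 0.28, VAV1 0.70 ± 0.32, the inhibitory lipid phosphatase INPP5D 0.63 ± 0.28 and LYN 0.19 ± 0.15. SYK, which binds the gamma chain, had 55 reads in all and was not tested. Against group I, the list's median was 0.10 with beef tallow and 0.33 with coconut oil, with 0 of 15 DEGs in each in edgeR's test and an unadjusted p-value under 0.05 for 1 and 6 genes, beside 7.96 and 14.2% of all genes. PTPN6 was also the signalling gene that differed most between groups III and IV, by 0.89 ± 0.23 higher in group IV (edgeR, adjusted p = 0.997).

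Macrophage markers had the fold changes nearest in size to those of the chains. Of the 15 tested between groups I and II, 14 had a log2 fold change above 0, with a median of 0.98. Their summed level had a median of 174 CPM (99.8 to 322) without cDDGS. With it, the median was 369 CPM (304 to 595) on rapeseed oil, 231 (175 to 331) on beef tallow and 333 (175 to 488) on coconut oil. In edgeR's test 0 of the 15 were DEGs, with an unadjusted p-value under 0.05 for 11 that were higher and 1 that was lower with cDDGS, beside 13% of all genes in either direction. DESeq2 called 4 of them, beside 0.534% of the 17980 genes it covered. Those include genes below edgeR's low-count filter, which kept 10323, so the share is not over genes of like level. Like all lists here, this list was chosen with earlier results of these data known. Its counts beside those of all genes are therefore a description and no test. VSIG4 had 1.65 ± 0.37 (log2, SE), C1QA 1.51 ± 0.32, C5AR1, the receptor for complement C5a, 1.41 ± 0.32 and CD68, a lysosomal protein of macrophages, 0.98 ± 0.36. CSF1R, the receptor for the macrophage growth factor, had too few reads for a test in groups I and II. The part of macrophages in the differences of MS4A2 and FCER1G was not tested.

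TYROBP and the single MS4A relative bear on the families of the chains. TYROBP had a median of 3.47 CPM in group I and 5.49 in group II, with a log2 fold change of 1.10 ± 0.37 (edgeR, adjusted p = 0.261), and CD247, the T cell adaptor of the same kind, had 0.02 ± 0.27. MS4A7, an MS4A protein of macrophages, had the opposite sign, with a mean of 6.81 ± 3.75 CPM without cDDGS (SD, n = 7) against 2.36 ± 1.299 with cDDGS and rapeseed oil (SD, n = 6), and a log2 fold change of -1.46 ± 0.39 (edgeR, adjusted p = 0.211). Against the 3 cDDGS groups combined, MS4A7 had -1.35 and was called by DESeq2 and limma-voom but not by edgeR (adjusted p = 0.0983). In the RefSeq annotation of the pig genome, the gene named MS4A2 lies near MS4A4A with a long non-coding RNA inside its span. The identifier counted here as MS4A2 could not be joined to that annotation. Whether this position is that of the gene measured was therefore not tested.

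**Figure D5:**
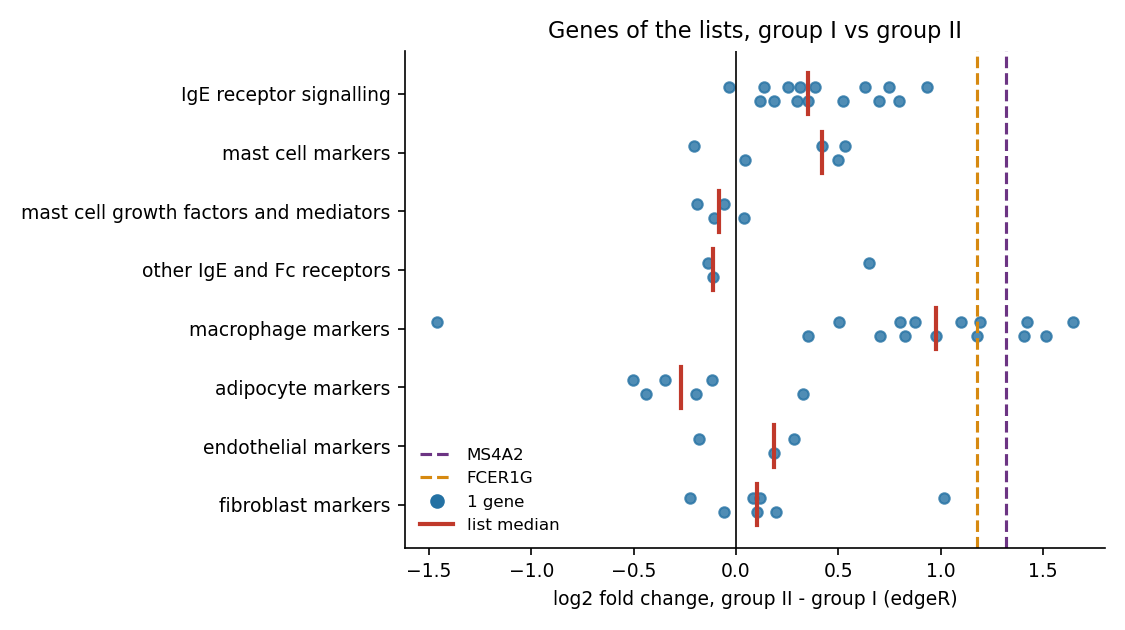
Fitted log2 fold changes (edgeR) of single genes (points) between group I and group II by list, with the list median in red and the values of MS4A2 and FCER1G as dashed lines. Macrophage markers have the highest median (0.98), signalling genes 0.35 and adipocyte markers -0.27.

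The medians of the remaining lists lay nearer 0. Mediators and growth factors of mast cells had a median of -0.08 over 4 tested genes, among them VEGFA with -0.19 ± 0.23, CCL2 with -0.11 ± 0.29 and IL33 with -0.06 ± 0.21 (log2, SE). On the list of other IgE and Fc receptors, LGALS3, a lectin that binds IgE, had 0.65 ± 0.37 (-0.066 with the share of reads outside genes as covariate). FCGRT, the neonatal Fc receptor, had -0.14 ± 0.11. IL4R, on the same list though it is a receptor for interleukin-4 and not for IgE or Fc, had -0.11 ± 0.23. Adipocyte markers had a median of -0.27 over 6 genes, with -0.50 ± 0.15 for the lipase LIPE, -0.44 ± 0.17 for CIDEC and 0.33 ± 0.21 for PPARG. Endothelial genes had a median of 0.19 (TEK -0.18 ± 0.13, TIE1 0.28 ± 0.28, PECAM1 0.19 ± 0.19) and fibroblast genes of 0.10 (DPP4 1.02 ± 0.40, PDGFRA 0.20 ± 0.13, LUM -0.23 ± 0.20). The T cell gene CD2 had -0.10 ± 0.35, ACTA1 -0.67 ± 1.10, TNNC2 -0.05 ± 1.03 and COL1A2 0.08 ± 0.25. CD2 was the only gene of the T and NK cell list tested here, so it does not stand for that list. The 8 genes of the list with an identifier summed to a median of 11.6 CPM in group I and 12.4 CPM in group II.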

How the data were processed

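Backfat RNA was sequenced single-end after ribosomal RNA depletion with a stranded kit for degraded RNA. The authors trimmed the reads with FLEXBAR, mapped them with TopHat and deposited raw HTSeq counts per Ensembl gene for 23 pigs, with 25322 gene rows and 5 summary rows each. The strand setting of the counting, the merging of repeated runs and the match of genome build and annotation are not given in the sources used here, so no coordinates are printed. Counting leaves out reads that fit several places, and reads of overlapping genes cannot be told apart.

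Counts were normalized by TMM, filtered with filterByExpr and tested with glmQLFit and glmQLFTest (edgeR 4.0.16, R 4.3.3) on the pigs compared, and with diet as covariate for sex. Benjamini-Hochberg adjustment covered all genes tested. The study used DESeq2, run here as an alternative (1.42.0) with limma-voom (limma 3.58.1). Single genes were tested by exact permutation on log2(CPM + 0.5). Scripts were tested on simulated counts. Nothing in the labels pairs pigs across diets. Over 56 pairs of pigs on 1 diet, chi-square divided by its degrees of freedom was at least 7.02, so each pig counted as 1 sample. Figures were drawn with matplotlib 3.10.9.

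Symbols came from a names table (11804 identifiers of the files) and, for 63 more, from the study's tables. Both genes and all gene lists were chosen with earlier results of these data known. Named genes were both chains and a fixed set of their partners, in each list up to 3 further genes with the smallest unadjusted p for groups I and II, list genes called in any comparison, and the 5 genes most like each chain. FCGR3A, CD163 and ADIPOQ had no matched identifier. Genes with a role in a sentence but outside this rule (MRC1, MITF, HPGDS, SLC18A2 and GATA1) were named after their values had been seen. The study's qPCR measurements, with MS4A2 among the genes measured, were not analysed here, and no protein or DNA sequence was used.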

Additional observations from a re-analysis of the deposited data

Results flagged for a closer look

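For both chains and 36 genes set beside them, the pigs of each diet were examined for a single pig far from the others, in 152 groups of pigs. Chance flags about 1 in 20 such groups. FCER1G itself stood apart in pig 1 of group I, with 11.3 CPM, and in the same pig VAV1 had 10.4 CPM and LGALS3 157 CPM. Without pig 1, the log2 fold change of FCER1G between groups I and II was 1.37 in place of 1.18, and against group III 0.44 in place of 0.25 (from 0.078 without pig 43 to 0.44 over all pigs left out in turn).

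In group II, pig 19 stood apart in the macrophage genes C1QA with 68.7 CPM and CD68 with 15.4 CPM. It also had the highest FCER1G of all pigs, 29.2 CPM, and without it the log2 fold change of FCER1G between groups I and II was 0.87. In the same group IL4R was 30.1 CPM in pig 21 and DPP4 15.5 CPM in pig 17. MS4A2 had no pig far from the others in any diet.

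The muscle gene ACTA1 stood apart in pig 24 of group II with 794 CPM, in pig 46 of group III with 1542 CPM and in pig 52 of group IV with 605 CPM, and TNNC2 in pig 24 with 184 CPM. The FCER1G level of these pigs was 10.4, 7.22 and 8.60 CPM, and their MS4A2 level 67.3, 55.5 and 51.3 CPM.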

How the results depend on the processing

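The differences of both chains from group I kept their sign under all 9 other settings and in all sets with 1 pig left out, and none moved by as much as 1 SD between pigs. That SD was 0.70 for MS4A2 and 0.51 for FCER1G, larger than the SE of any of these estimates. Both genes had been chosen for differences from group I in these same counts, so the kept sign is a description and no test. With the share of reads outside genes as covariate, FCER1G between groups I and II moved by more than its SE. For groups I and II the differences lay between 1.304 and 1.60 for MS4A2 and between 0.70 and 1.28 for FCER1G, and from 1.16 to 1.62 and 0.87 to 1.37 with 1 pig left out. Against groups III, IV and all combined they were 0.69 to 1.17, 0.59 to 1.10 and 0.94 to 1.25 for MS4A2, and 0.21 to 0.36, 0.60 to 0.71 and 0.48 to 0.83 for FCER1G. Between groups III and IV, MS4A2 changed sign with limma-voom (-0.075) and with the share of reads outside genes as covariate (-0.13), and ranged from -0.016 to 0.36 with 1 pig left out (-0.011 to 0.42 in the permutation test). With 1 pig left out, its difference between the sexes was -0.017 to 0.25, that of FCER1G 0.46 to 0.63, and the correlation of the chains -0.0081 to 0.22. It was -0.0051 without the 2 farthest pigs.

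DEGs between groups I and II were 96 with DESeq2, 5 with sex as covariate, 0 with the RNA integrity number, with the share of reads outside genes or with all pigs in 1 fit, and 0 to 17 with 1 pig left out (17 without pig 1). The listed genes include both chains, which these comparisons had chosen, and all lists were chosen with earlier results of these data known. Counts of listed genes are therefore given as a description. Of 109 listed genes DESeq2 called 7 (both chains among them), beside 0.534% of all genes. Sex as covariate gave 1 listed gene among its 5 DEGs, and leaving out pigs gave 0 to 2. DESeq2 called 13 DEGs between groups I and III (1 with no low-count filter, 0 to 1 with 1 pig left out, 1 without pig 43). Between groups I and IV it called 154 of 17937 genes, beside 1 of 108 listed genes. With 1 pig left out, that comparison gave 0 to 116 DEGs (116 without pig 53). For the combined groups DESeq2 called 163 DEGs (0.88% of all genes), beside 9 of 111 listed genes, 1 of them a chain. The combined groups gave 51 with limma-voom (0.474% of all genes), beside 3 of 67 listed genes. They gave 2 with no filter, 1 with all pigs in 1 fit, and 0 to 43 with 1 pig left out (43 without pig 1, listed genes 0 to 2). Groups III and IV gave 1 with the reads outside genes as covariate. Females and males gave 258 with DESeq2 (1.4% of all genes), beside 3 of 111 listed genes. They gave 158 with no filter (3 listed genes), 60 with the RNA integrity number and 2 listed genes with the reads outside genes. With 1 pig left out they gave 37 (without pig 43) to 200 (without pig 17), and 0 to 4 listed genes.

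Several named genes changed sign between groups I and II, most of them near 0 but LGALS3 from 0.65 and ACTA1 from -0.67. With the RNA integrity number, CCL2 was 0.015, IL33 0.0046, CD247 -0.23, IL4R 0.045, ACTA1 0.54 and TNNC2 0.76. With the reads outside genes, LGALS3 was -0.066, CD2 0.0501, TNNC2 0.49 and COL1A2 -0.25. CD247 was -0.029 with sex as covariate, CD2 0.038 and COL1A2 -0.042 with limma-voom, and TNNC2 0.0225 with DESeq2. With 1 pig left out the ranges were -0.24 to 0.0298 for CCL2, -0.20 to 0.0581 for IL33, -0.11 to 0.20 for CD247, -0.31 to 0.0233 for IL4R, -0.39 to 0.10 for CD2, -2.205 to 0.0178 for ACTA1, -1.804 to 0.64 for TNNC2 and -0.12 to 0.20 for COL1A2. The cause of these changes was not tested. No paired analysis was possible because no label pairs pigs across diets. FCER1G, with as few as 9 reads in a pig, is limited more by depth than MS4A2.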

Other observations

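Between the sexes, 1 of the 70 list genes tested was a DEG in edgeR's test, beside 0.819% of all genes (92 of 11235). The lists were not tested as wholes. All 7 fibroblast genes were above 0 in females against males, with a median log2 fold change of 0.56 beside 0.02 over all genes, and COL1A2 was the 1 DEG among them in edgeR's test. Of 16 macrophage genes, 15 were above 0, with a median of 0.39 and 0 DEGs in edgeR's test (unadjusted p-value under 0.05 for 4, beside 17.3% of all genes, and 0 calls by DESeq2). Both muscle genes were below 0, with a median of -2.82. The lists of basophils and eosinophils, neutrophils, B and plasma cells, dendritic cells and platelets had no gene above the low-count filter in any comparison of diets.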
